A study of Mus musculus with 6 samples.

Results

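Retinoic acid (RA) can move the level of a gene in B16 mouse melanoma cells toward that of melan-a melanocytes or away from it. The 9 genes described here were moved away, and they were chosen by the study's list of RA responses and by the mean ratio of melan-a over B16 on these arrays. Mgll, Id2, Degs1, Ccn1, Ctsc and Rora were listed as lowered by RA in B16 cells and had a higher signal in melan-a than in B16. Gpr37, Crmp1 and Gmpr were listed as raised by RA and had a lower signal in melan-a. Joined by accession, the lists of RA-responsive genes and of genes that differ between the cell lines had 232 genes in common. Of these, 30 had opposite directions, 15 each way, and the 9 genes are among them. The direction under RA was that of the time points at which a gene is listed, and a grouping by another time point could place some of the 30 genes elsewhere. The split printed in the study differs slightly. It places Txnrd1, which is among the 30 genes here, with the genes moved toward melan-a.

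The deposited data are 6 two-colour arrays of the whole mouse genome, each with RNA of melan-a and of B16 cells hybridised together and each from a separate biological replicate. B16 is a tumorigenic melanoma line, here grown in DMEM with bovine calf serum. Melan-a is a diploid, partly immortalized melanocyte line that forms no tumors in syngeneic mice, here grown in RPMI 1640 with fetal bovine serum and a phorbol ester. Both lines come from the C57/Bl6 strain, and none of the cells on these arrays received RA. Melan-a RNA carried Cy5 in replicates 1, 3 and 5 and Cy3 in replicates 2, 4 and 6. Each cell type is represented by a single line with its own medium, serum and additive, so that malignancy, line and culture conditions cannot be told apart. The directions under RA are those of the study, which measured them on another make of array, and no RA-treated array was analysed here.

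RA is a vitamin A derivative that binds nuclear receptors, which sit on DNA as pairs over repeats of a short hexamer and switch the transcription of nearby genes. In B16 cells it is known to arrest growth and to drive differentiation. The 9 genes have unrelated functions: a lipase, an inhibitor of transcription factors, a ceramide enzyme, a matrix protein, a lysosomal protease, an orphan nuclear receptor, a G protein-coupled receptor, a mediator of axon guidance and a purine enzyme.

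The array files name probes but not genes. A probe was taken as a candidate for a gene when its mean ratio over the 6 arrays, as a fold, equalled the fold the study lists for that gene within 0.00051. The mean ratio therefore chose the probes, and all ratios below are a description without a test. The rule gave 22 candidates. Mgll, Id2, Ctsc and Gpr37 had 1 candidate each, Ccn1 had 2, Degs1 had 3, Rora and Gmpr had 4, and Crmp1 had 5. The candidate of Mgll lay 0.00048 from its fold, and the nearest probe outside the tolerance lay 0.00161 away. For Gpr37 these distances were 0.00033 and 0.00053, so that its only candidate has a close rival. For Id2 the nearest rival lay 0.00687 away, the clearest match of the 9. The listed fold of Rora, Crmp1 and Gmpr is each shared with 3 other entries, and that of Degs1 and Ccn1 with 1. For a gene with several features the study lists only that with the largest fold. At most 1 candidate of each of these 5 genes is therefore its listed probe, and which one is not known. The others may belong to another entry, for example those of Crmp1 to Tead2. Values of several candidates below are thus alternatives, not repeated measures of 1 gene.

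Because all 9 genes are listed as responding to RA, their promoters were read for the hexamer of RA receptors. RefSeq windows of 300 bases, 250 before and 50 after the start in GRCm38.p6, were found for 9 of 9 genes, with 11 windows in all since Mgll and Crmp1 have a second start. The hexamer was searched on both strands as AGGTCA, the consensus, and in the variants AGTTCA, as well as GGGTCA, and finally GGTTCA. It occurred in a window of 5 genes, Mgll, Id2, Degs1, Crmp1 and Gmpr, and in 43.7% of all 32851 windows. No window held 2 hexamers as a direct repeat 1, 2 or 5 bases apart, an arrangement found in 0.222%, 0.268% and 0.0974% of all windows. The stretches before the start of 4 genes are shown to let the matches be seen in place. Capitals mark the hexamer in Mgll (GGTTCA at -136), Degs1 (TGACCC at -139, which reads GGGTCA on the other strand) and Gmpr (AGGTCA at -152). They also mark the M-box CATGTG, the site of the pigment cell factor MITF, in Mgll at -236 and Degs1 at -228, and the YAP/TEAD site GGAATG in Gmpr at -205 and, on the other strand as CATTCC, in Ccn1 at -103.
Mgll promoter (chr6:88724162-88724411, plus strand): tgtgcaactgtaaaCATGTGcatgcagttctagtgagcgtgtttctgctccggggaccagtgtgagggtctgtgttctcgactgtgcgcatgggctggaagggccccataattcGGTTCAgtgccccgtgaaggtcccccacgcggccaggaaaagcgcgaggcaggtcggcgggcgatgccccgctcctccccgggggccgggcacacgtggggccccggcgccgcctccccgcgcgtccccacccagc
Degs1 promoter (chr1:182282196-182282445, minus strand): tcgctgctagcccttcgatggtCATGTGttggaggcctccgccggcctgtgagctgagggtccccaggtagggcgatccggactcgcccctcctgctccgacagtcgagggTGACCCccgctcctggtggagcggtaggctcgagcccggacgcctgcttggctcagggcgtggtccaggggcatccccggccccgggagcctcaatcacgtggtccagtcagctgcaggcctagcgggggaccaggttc
Ccn1 promoter (chr3:145649986-145650235, minus strand): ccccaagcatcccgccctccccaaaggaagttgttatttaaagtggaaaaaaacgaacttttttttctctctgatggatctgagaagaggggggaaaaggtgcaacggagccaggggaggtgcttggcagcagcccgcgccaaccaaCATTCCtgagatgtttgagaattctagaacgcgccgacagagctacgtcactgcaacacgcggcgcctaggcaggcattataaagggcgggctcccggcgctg
Gmpr promoter (chr13:45507194-45507443, plus strand): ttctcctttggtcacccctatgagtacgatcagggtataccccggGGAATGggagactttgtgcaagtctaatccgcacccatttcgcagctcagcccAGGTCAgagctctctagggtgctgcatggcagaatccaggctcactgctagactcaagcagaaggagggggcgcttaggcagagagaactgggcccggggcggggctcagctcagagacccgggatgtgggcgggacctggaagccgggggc

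The hexamer of Id2 lay after the start, at 7, as did a second one of Degs1 at 4. That of Crmp1 lay at -227 of its second window. The M-box was found in 2 of the 9 genes and in 14.2% of all windows, and the YAP/TEAD site in 2 genes and in 14.7%. Ccn1, an established target of YAP and TEAD, was among the latter. The AP-1 site TGACTCA, through which phorbol esters act and which 5.2% of windows held, occurred in none of the 9 genes. The same was true of the cyclic AMP element TGACGTCA, held by 1.79%. The E-box CANNTG, which includes the M-box, occurred in 5 genes and in 72.3% of windows. The windows of Ctsc and Rora held none of these motifs. The windows of the 9 genes had 57.0% to 77.0% G and C with a median of 63.3%, against a median of 52.7% over all windows. Only these letters were sought and no binding was measured.

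Mgll encodes monoacylglycerol lipase, which breaks down the endocannabinoid 2-arachidonoylglycerol and releases free fatty acids. In replicates 1 to 6 its log2 ratio of melan-a over B16 was 3.86, 3.34, 0.95, 1.14, 0.84 and 1.18, a mean of 1.88 ± 1.34 (SD, n = 6) or 3.69-fold. All 6 arrays were on the side of melan-a, but replicates 1 and 2 stood far above the other 4. The normalized log2 signal of melan-a varied less than that of B16, from 13.53 in replicate 1 to 14.98 in replicate 6. That of B16 was 9.67 and 10.85 in replicates 1 and 2 and between 13.08 and 14.05 on the other arrays. Both lines thus had their lowest Mgll signals in replicates 1 and 2, with the larger drop in B16. Replicates 1 and 2 were also the dimmest arrays, with a median summed signal of 1093 and 780 against 1871 to 4308 on the others, and the part of this in the ratio was not tested. Without both arrays the mean log2 ratio of Mgll was 1.03.

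Id2 is a helix-loop-helix protein without a DNA-binding region that holds basic helix-loop-helix factors inactive. Its log2 ratio was 2.48, 2.98, 1.83, -0.36, 1.71 and 0.79 in replicates 1 to 6, with a mean of 1.57 ± 1.20 (SD, n = 6) or 2.97-fold. Melan-a was brighter on 5 arrays and B16 on replicate 4. There the log2 signal of melan-a was 13.44, its lowest of the 6 arrays, and that of B16 was 13.80, its highest. Without replicates 1 and 2 its mean log2 ratio was 0.99.

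**Figure D1:**
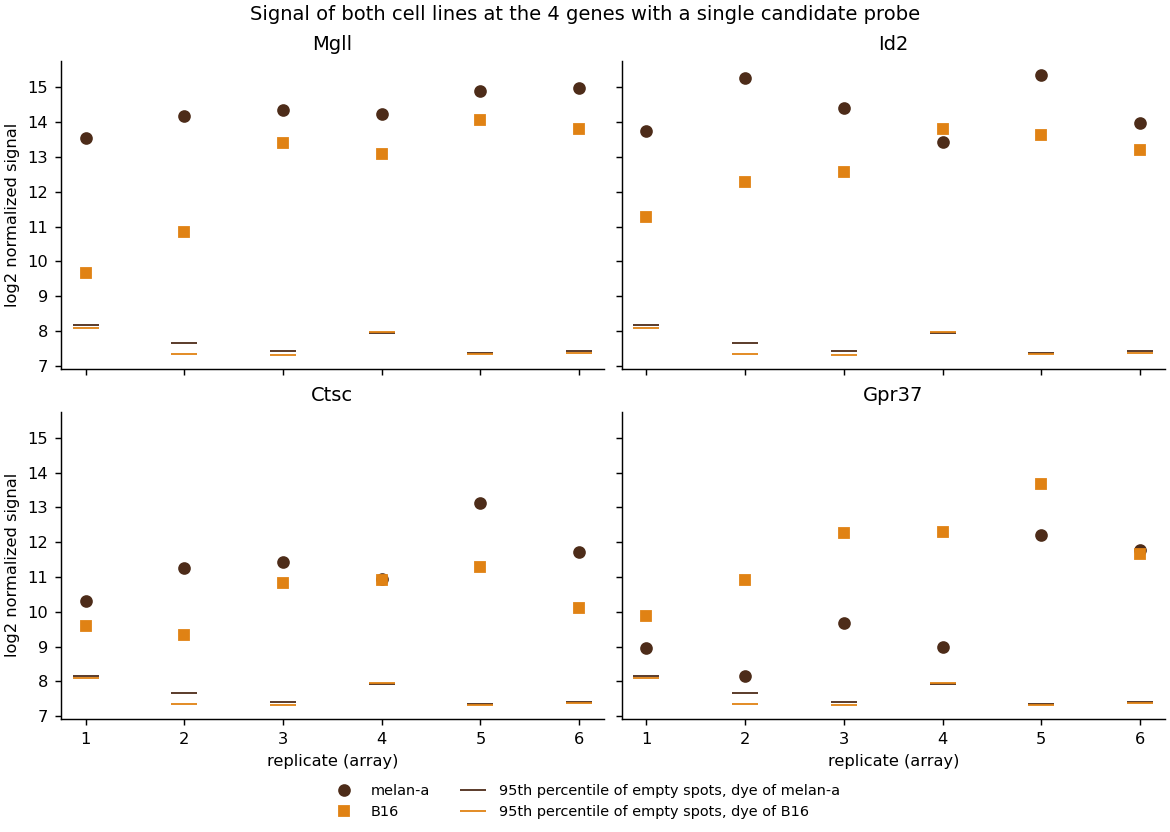
Normalized log2 signal (vertical axis) of melan-a (circles) and B16 (squares) on each of the 6 arrays (horizontal axis) for Mgll, Id2, Ctsc and Gpr37, the genes with 1 candidate. Horizontal marks give the 95th percentile of the empty spots for the dye of each line. The B16 signal of Mgll was low in replicates 1 and 2, and the order of the lines was turned for Id2 in replicate 4 and for Gpr37 in replicate 6.

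Degs1 is the desaturase that makes ceramide from dihydroceramide. Its 3 candidates, all at 2.56-fold, differed in spread. Candidate 2 was the steadiest of the 22, with log2 ratios of 1.14, 1.38, 1.19, 1.74, 1.10 and 1.59 and an SD of 0.26. Candidate 3 had 2.35, 1.41, 1.79, 0.60, 1.07 and 0.91. Candidate 1 gave 0.42, 1.72, 2.46, 1.47, 1.07 and 1.00. All of these values were above 0. The B16 signal of candidate 1, however, lay below the 95th percentile of the empty spots in replicates 1, 2 and 6, by 0.11, 0.16 and 0.12 in log2. With median in place of mean signals its mean log2 ratio was 2.13 rather than 1.36.

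Ccn1, a secreted matrix protein that binds integrins, had 2 candidates at 2.39-fold. The log2 ratios of candidate 1 were 0.18, 1.73, 1.57, 3.00, 0.40 and 0.66 (SD 1.06). Those of candidate 2 were 1.86, 2.53, 1.65, 0.89, -0.01 and 0.64 (SD 0.92). The candidates reached the same mean by different arrays: replicate 4 was the highest of candidate 1 and replicate 2 that of candidate 2. In replicate 5 candidate 2 lay at -0.01 and candidate 1 at 0.40.

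Ctsc is the lysosomal cysteine protease cathepsin C, which activates granule proteases of immune cells. Its log2 ratio was 0.73, 1.92, 0.60, 0.05, 1.84 and 1.59, with a mean of 1.12 ± 0.77 (SD, n = 6) or 2.17-fold. Replicates 2, 5 and 6 lay above 1.5 and replicate 4 near 0, so that the arrays of Ctsc fell on both sides of its mean, the nearest being replicate 1. Rora is an orphan nuclear receptor that drives the clock gene Bmal1 and, despite its name, is not a receptor of RA. Its 4 candidates shared the smallest mean of the 9 genes, 0.86 or 1.81-fold. Their SDs ran from 0.32 to 0.62. Candidate 4 was the most even, with 0.65, 0.82, 1.44, 0.59, 0.98 and 0.68, and only candidate 2 had an array below 0, at -0.10 in replicate 2.

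Among the genes with lower signals in melan-a, Gpr37 encodes an orphan receptor of neurons and glia that is a substrate of the ubiquitin ligase parkin. Its log2 ratio was -0.91, -2.75, -2.58, -3.29, -1.45 and 0.10, with a mean of -1.81 ± 1.28 (SD, n = 6), so that B16 was 3.51-fold brighter. On 5 arrays B16 was brighter, and in replicate 6 the lines did not separate, with log2 signals of 11.77 in melan-a and 11.67 in B16. The melan-a signal was 12.22 and 11.77 in replicates 5 and 6 and 8.17 to 9.67 in the other 4. Replicate 5 was also the brightest array, with a median summed signal of 4308, and the B16 signal of Gpr37 was highest there, at 13.67. The part of array brightness in these signals was not tested. In replicate 2 the melan-a signal exceeded the 95th percentile of the empty spots by 0.51 in log2.

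Crmp1 is a cytosolic phosphoprotein that carries the signal of semaphorin 3A in growing axons. The mean log2 ratio of its 5 candidates was -1.70, or 3.24-fold toward B16. All 5 were negative on all 6 arrays. Candidate 5 gave -0.89, -1.73, -0.98, -3.01, -1.31 and -2.27, and candidate 4, the steadiest, gave -2.48, -1.76, -1.71, -1.58, -1.25 and -1.40. Candidate 3 came closest to 0, at -0.13 in replicate 1. The candidates shared a mean direction by the matching, while the order of the arrays differed. Replicate 1 was the largest difference of candidate 4 and the smallest of candidates 2, 3 and 5.

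Gmpr is GMP reductase, which turns GMP back into IMP. Its 4 candidates averaged -1.55, or 2.93-fold toward B16, and each was negative on every array. Candidate 4 gave -1.40, -1.70, -1.38, -2.15, -1.17 and -1.50 (SD 0.34). Candidate 2 gave -1.58, -1.88, -1.21, -2.28, -1.12 and -1.25. In replicate 5 its log2 signal in B16 was 15.96 and that of Crmp1 candidate 5 was 15.89, where the highest signal on that array was 16.03. These spots may have been saturated, so that both ratios there may be too small. In 3 of the 4 candidates replicate 4 was the largest difference, and in candidate 3 it was the smallest, at -0.39.

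**Figure D2:**
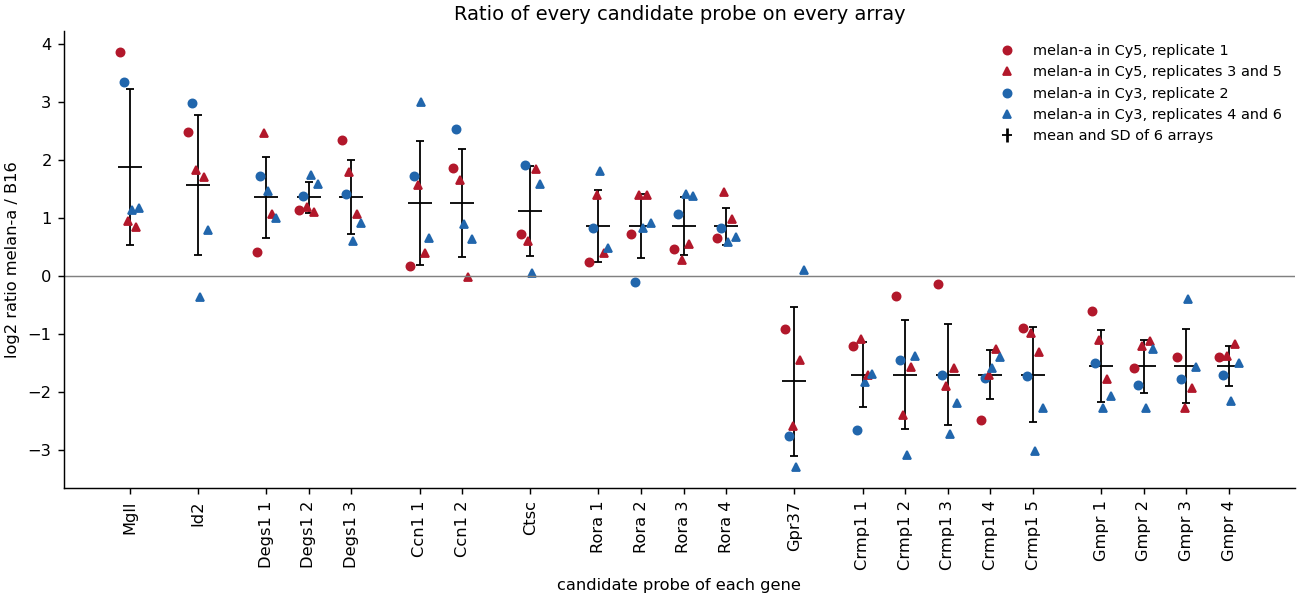
Log2 ratio of melan-a over B16 (vertical axis) of each candidate probe (horizontal axis, numbered within genes that have several) on 6 arrays, coloured by the dye of melan-a, with round points for replicates 1 and 2. Black bars are the mean and SD. The candidates of Crmp1 and Gmpr lie below 0 on every array, and Mgll shows replicates 1 and 2 apart from the rest.

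Of the 22 candidates, 18 kept 1 direction on all 6 arrays and 4 on 5 arrays. The rule chose the probes by their mean over these arrays, which favours 1 direction. The same holds when arrays are left out, and no share over other probes was counted. In a limma fit over 39687 probes, 5.23% of probes passed an adjusted p under 0.10 and a fold over 1.5 as higher in melan-a and 6.31% as lower. All 22 candidates passed, but the rule had picked probes with such means, and among probes with a mean fold over 1.5, 88.9% passed. Without replicate 2 or without replicate 3 a candidate of Ccn1 did not pass. Without replicates 1 and 2 together, a setting chosen after seeing the data, Id2 and Ccn1 did not pass at every candidate, and 22 of 22 candidates kept their direction.

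Between arrays the genes differed in spread. The median SD of the 22 candidates was 0.64, against 0.344 over all probes tested and 0.546 over the probes that passed. It exceeded that of the passing probes for 16 candidates. For each candidate the SD was also ranked among probes whose mean log2 ratio lay within 0.1 of its own. The rank is the share of these probes, the candidate included, with an SD at or below its own. The median rank of the 22 candidates was 39.5%, with 12 candidates below the middle rank. Most of the 22 belong to genes with several candidates, which may stand for other entries. The 4 genes with 1 candidate all ranked above the middle. Gpr37 ranked at 98.7% of its 79 probes, Mgll at 90.9% of 55, Id2 at 89.4% of 94 and Ctsc at 64.9% of 316. By contrast candidate 2 of Degs1 ranked at 1.2% of 163, candidate 4 of Gmpr at 7.1% of 127 and candidate 4 of Rora at 7.7% of 596. The difference was largest in replicate 4 for 11 of the 22 candidates and in replicates 5 and 6 for 0. Replicate 4 was also the array with the widest log2 ratios over all spots, with an SD of 0.802 against 0.481 to 0.622 on the others.

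The signals of the 22 candidates were mostly above those of the empty spots, as were those of most probes tested. Of 132 melan-a values, 132 exceeded the 95th percentile of the empty spots of the same array and dye, and of 132 B16 values 129 did. Over all probes tested these shares were 94.2% and 97.0%. The 3 exceptions were those of Degs1 candidate 1. Since most probes tested exceeded this limit, passing it does not show that a gene is expressed in both lines. Some values lay only just above it, as for Crmp1 candidate 3 in melan-a, by 0.35 in log2 in replicate 2. Ratios with such values may be only bounds.

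The dye swap gave a test of a measure that the mean ratio did not fix. The study's list, however, weighs the mean against the spread over the arrays, which a labelling effect widens. The choice of the genes was therefore not wholly free of it. The labelling term is the mean log2 ratio with melan-a in Cy5 minus that with melan-a in Cy3, 3 arrays each, and it is independent of their mean. It passed an adjusted p under 0.10 for 0.0403% of 39659 probes and for 0 of the 22 candidates. At an unadjusted p under 0.05 it passed for 13.2% of probes and for 4 candidates. These were candidate 3 of Rora at -0.86 ± 0.22 (SE, n = 3 against 3, limma adjusted p = 0.232), candidate 5 of Crmp1 at 1.27 ± 0.33 (limma adjusted p = 0.232), candidate 1 of Gmpr at 0.79 ± 0.34 (limma adjusted p = 0.368) and candidate 1 of Crmp1 at 0.72 ± 0.31 (limma adjusted p = 0.37). For candidate 5 of Crmp1 the mean log2 ratio was -1.06 with melan-a in Cy5 and -2.34 with melan-a in Cy3. For Mgll the means were 1.88 and 1.89, a term of -0.01 ± 0.83 (SE), and for Id2 2.01 and 1.13. The terms of the 22 candidates were above 0 for 12 and below 0 for 10, and the median of their sizes was 0.52 against 0.283 over all probes. The candidates also had the larger median SD over the arrays, 0.64 against 0.344, and the sizes were not compared at like spread. A term that missed the threshold does not show that both labellings gave the same ratio, since the standard errors reached 0.83.

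**Figure D3:**
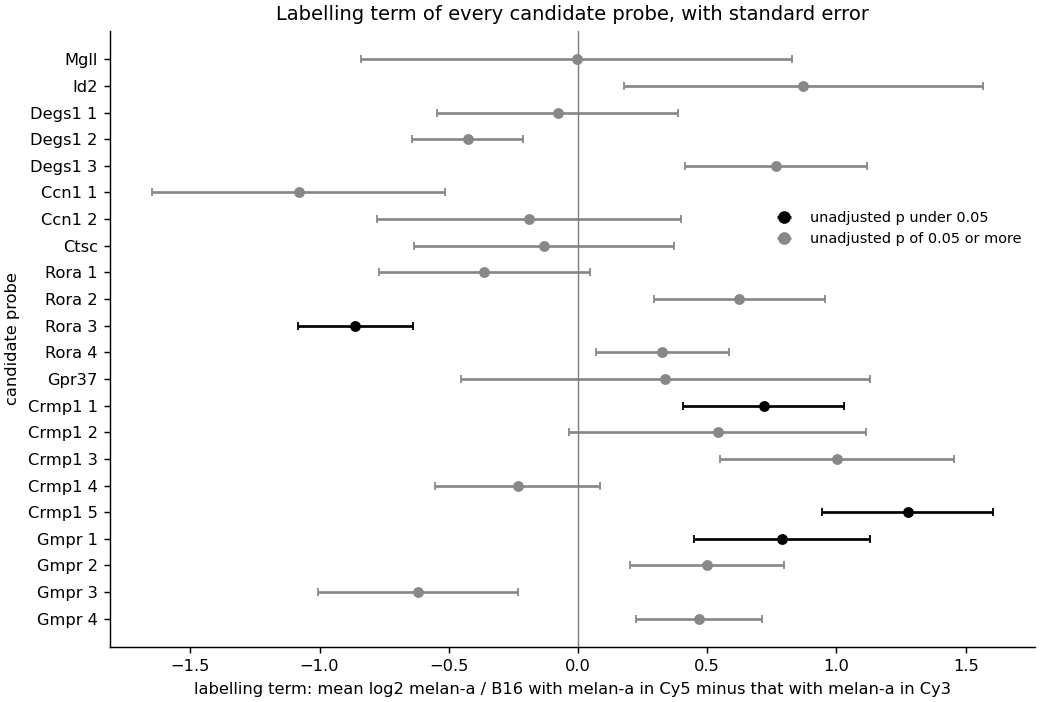
Labelling term (horizontal axis, log2) with its limma standard error for each candidate probe (vertical axis), 3 arrays with melan-a in Cy5 against 3 in Cy3. Black points have an unadjusted p under 0.05, and the lowest adjusted p was 0.232. The terms scatter on both sides of 0.

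The 9 genes were set beside the other 21 genes of their class. Within the RA-lowered side, Mgll and Id2 had the largest ratios. Rgs10, a regulator of G protein signalling, at 2.32-fold and an entry known only by its accession at 2.31-fold lay between Ccn1 and Ctsc. Within the RA-raised side, Marcksl1, a protein kinase C substrate, exceeded Gpr37, Crmp1 and Gmpr with 7.25-fold and an SD of 0.78. Mest and Fabp7, a fatty acid carrier of neural crest derived cells, followed at 2.40-fold and 2.33-fold. In each direction 14 of the 15 genes passed the thresholds at every candidate. The genes had been listed by the same contrast, and among probes with a mean fold over 1.5, 88.9% passed. The 5.23% and 6.31% given above are shares of all probes. The genes that RA moved toward melan-a were more numerous. There, 104 of 131 genes lowered by RA and 60 of 71 raised by RA passed at every candidate, again after a choice by the same contrast. These counts also depend on the number of candidates, since all of them must pass. The median number was 6 for the genes lowered and 2 for those raised.

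**Figure D4:**
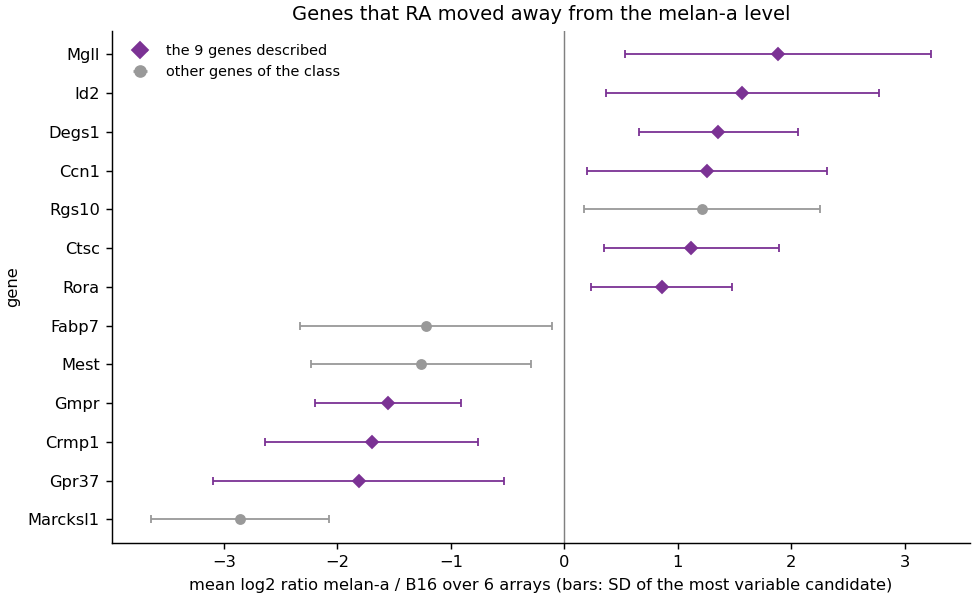
Mean log2 ratio of melan-a over B16 over 6 arrays (horizontal axis) of the 9 genes described (diamonds) and of 4 other genes that RA moved away from the melan-a level (circles), each on a row of the vertical axis, with the SD of the most variable candidate. Among these, Mgll and Id2 lie highest, and Gpr37, Crmp1 and Gmpr lie lowest after Marcksl1.

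Genes that work with the 9 were then counted in lists by function. A gene had a value only where the study lists it as different between the lines, so each list is described by its counts, with no test, and was not chosen independently of these arrays. Over all 2360 listed genes with a symbol, 31.7% passed at every candidate as higher in melan-a and 36.6% as lower, and nothing particular is read from a list beside these shares. Gmpr belongs to the purine enzymes. Of 23 genes of purine nucleotide synthesis and interconversion, every candidate of 7 others was lower in melan-a, 0 genes were higher and 15 had no value. Impdh2 and Gmps, which lead from IMP to GMP and so run against Gmpr, were lower by 2.26-fold and 2.14-fold. Ppat and Atic, which open and close the synthesis of IMP, were lower by 2.20-fold and 2.16-fold. Gmpr and the enzymes of the opposite direction thus lay on the same side, with Gmpr the largest difference among these 8.

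Around Ctsc, of 15 cathepsins and their partners 4 others were higher in melan-a, 0 were lower, and Ctsl passed at some of its candidates only. Higher were the inhibitor cystatin C (Cst3) by 2.35-fold, Lgmn, which processes cathepsins, by 2.06-fold, Ctso by 2.05-fold and Ctsa by 1.92-fold. Around Gpr37, 3 of the other 7 genes of the list were higher in melan-a and so opposite to Gpr37 itself. These were Septin5 by 3.11-fold and Syt11 by 2.12-fold, both parkin substrates, and Psap, the precursor of prosaposin peptides, by 1.77-fold. Around Crmp1, the related Dpysl5 and the ligand Sema3f were higher by 1.97-fold and 2.27-fold, also opposite to Crmp1, and 14 of 17 genes had no value.

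Id1, which acts as Id2 does, was higher in melan-a by 1.98-fold and Hes1, a repressor of the same superfamily, by 2.15-fold. The other 10 genes of that list had no value. The RA-lowered Rora lay with Nr1d1, which competes with it for the same DNA sites, at 2.27-fold and with the clock output factor Tef at 2.92-fold. Around Degs1, Sphk1 and Cers6 were higher by 3.00-fold and 1.91-fold, while Sptlc1, Sptlc2 and Cers4 passed at some candidates only. Around Ccn1 the list was split. Ccn4 and Amotl2 were higher by 2.91-fold and 2.06-fold, and Tead2 and Tgfb2 were lower by 3.24-fold and 2.16-fold, with the candidates of Tead2 shared with Crmp1. Around Mgll, only Fabp5 passed at every candidate, lower by 2.01-fold, and Abhd6 and Abhd12, which cleave the same lipid, passed at some.

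Both lines are labelled as pigment cells. Of 10 pigment cell markers, Oca2 was higher in melan-a by 5.86-fold and Kit by 1.85-fold. The other 8 are not listed by the study as different between the lines, so that no probe could be named and they had no value. Among markers of other cell types, Col1a1 of fibroblasts was higher in melan-a by 7.18-fold and Lyz2 of myeloid cells by 5.61-fold, the other 4 leukocyte markers and 5 fibroblast markers had no value, and none of 5 keratinocyte markers had one. For the genes named from these lists the standard error of the mean log2 ratio ran from 0.11 for Kit to 0.83 for Col1a1 (n = 6). The part of other cell types in the ratios of the 9 genes was not tested.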

How the data were processed

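RNA of melan-a and B16 cells was compared on 6 dye-swapped arrays, all 1 group. The deposited values are log2 signals, normalized by the authors with a global lowess (smoothing 0.2) and no background correction after quantification in ImaGene 6.0.1, per the file headers. A file holds 44290 spots, with 41534 for probes and 500 left empty. The header of replicate 3 lists Cy5 first, and signals were read by image name. The deposited series table holds the same log2 ratios, with the columns of replicates 4 and 5 exchanged. The array files were used. Turned by their own dye labels, the ratios of these arrays correlated across probe spots at 0.55 and 0.61 with the mean of the other 4, and with the labels exchanged at -0.55 and -0.61.

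Log2 ratios of mean signals were turned to melan-a over B16. A spot was kept where the summed signal exceeded 400, a probe where this held on 3 arrays, and spots of 1 probe were averaged. The study states this limit for background-subtracted intensity, so that fewer dim spots were removed here. The 39687 probes were fitted with limma 3.58.1 (R 4.3.3) as a one-class model, and with a labelling term, with Benjamini-Hochberg adjustment over all probes. SE of the labelling term is limma's moderated one. A gene passed when every candidate did. Fold changes of genes with several candidates are that of their mean. SAM with 64 sign permutations was an alternative. Python 3.11.15, numpy 2.4.6, pandas 2.3.3 and matplotlib 3.10.9 did the rest.

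The genes, lists and alternatives were chosen with earlier results of these data known. Named were the 9 genes, up to 4 genes of each list by size of change, and the 3 largest others in each direction among the opposite genes, of which 1 is not reported here. Replicate 1 was quantified on another day, which cannot be told apart from that array. The number of arrays limits the precision. The fits and SAM were tested on simulated data.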

Additional observations from a re-analysis of the deposited data

How the results depend on the processing

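The 9 genes passed the thresholds at every candidate with median signals, without the low-signal filter, with a filter on empty spots, with arrays centred on their median and under SAM. Leaving out 1 array gave 8 or 9 genes, doubling the matching tolerance gave 8 since a further candidate of Rora did not pass, and leaving out replicates 1 and 2 together gave 7. The mean log2 ratio of each of the 22 candidates kept its direction in every setting, which the choice of probes by that mean favours. With the doubled tolerance 22 rather than 28 of the 30 opposite genes passed at every candidate. Of the 264 signals of the candidates, 261 exceeded the empty-spot limit, 264 with the median of the empty spots as the limit and 260 with median signals. Before the start alone, 4 genes rather than 5 held the receptor hexamer. The numbers of probes higher and lower in melan-a stayed within 1.5 times those reported.

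The number of probes with a labelling term at adjusted p under 0.10 in limma, 16, was not stable. It ran from 0 (without replicate 5, with 4648 probes at an unadjusted p under 0.05) to 58 (without replicate 6) when 1 array was left out, and was 1 without replicates 1 and 2. For the candidates it was 0 throughout. Of 242 labelling terms of the candidates under the alternatives, 28 had another sign, all from 8 candidates with an adjusted p of 0.707 or more. Without replicate 2 the term of Crmp1 candidate 1 was 0.42 rather than 0.72, without replicate 1 that of Gmpr candidate 1 was 0.51 rather than 0.79, and that of Id2 ran from 0.13 without replicate 4 to 1.79 without replicate 2. Each array pairs both lines, so the one-class fit is itself the paired analysis. The 4 weakest names, Rora, Gpr37, Crmp1 and Gmpr, rest on a fold match with many near rivals, so their values hold only if the match is right.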
